A study of Mus musculus with 48 samples.

Results

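The Cyp4a genes encode cytochrome P450 enzymes of the liver and kidney that hydroxylate the far end of fatty acids. They were taken here as every gene named Cyp4a plus a number among the probes of the array. This gave 7 of the 37074 gene names on the array: Cyp4a10, Cyp4a12a, Cyp4a12b, Cyp4a14, Cyp4a29, Cyp4a30b and Cyp4a31, measured by 10 probes. The signal was well above background in enough mice for 5 of these 7 genes (8 of the 10 probes), among 20486 genes kept in all. Cyp4a29 was above background on 0 of 48 arrays and Cyp4a30b on 1 of 48, so neither has a usable level. No probe carries the name Cyp4a32.

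Liver RNA came from 48 male mice, 1 array per mouse, in 8 groups of 6. The p110αhep−/− mice carried a floxed gene for p110α, the catalytic subunit of the insulin-responsive phosphoinositide 3-kinase, and a Cre transgene under the albumin promoter, which is active in hepatocytes. Their p110αhep+/+ controls carried the floxed gene without Cre. From 12 weeks of age, mice of both genotypes received a control (CTRL) diet or a high-fat diet (HFD) with 60% of its calories as fat for 12 weeks. They were then either fed or fasted for 24 h, and all were killed at Zeitgeber time 16. In whole liver, fewer cells of a type and less RNA per cell cannot be told apart.

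CYP4A enzymes add a hydroxyl group to the terminal (omega) carbon of medium- and long-chain fatty acids, and the products are oxidized to dicarboxylic acids, which are shortened in peroxisomes. They draw their electrons from NADPH through cytochrome P450 oxidoreductase, encoded by Por. Cyp4a10 and Cyp4a14 are textbook targets of PPARα, a nuclear receptor for fatty acids that is active in the fasted liver. Cyp4a12a, by contrast, is known as a male-predominant gene of mouse liver and kidney that depends on growth hormone pulses and androgen.

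The probes bear on how far one gene can be told from the next. The array was designed on the mouse build mm9, where the 10 probes lie on chromosome 4, the first at chr4:114923306-114923365 in Cyp4a29 and the last at chr4:115251553-115251612 in Cyp4a31. In the RefSeq gene order of assembly GRCm38 the family runs Cyp4a29, Cyp4a12a, Cyp4a12b, Cyp4a30b, Cyp4a14, Cyp4a10, Cyp4a31 and Cyp4a32, with pseudogenes between some of them. All 3 probes named for Cyp4a10 also list a Cyp4a32 transcript in the array's annotation, the Cyp4a12a probe also lists Cyp4a12b, and 1 of the 2 Cyp4a31 probes (A_55_P2024033) also lists Cyp4a10. The probes of Cyp4a14 and Cyp4a12b list no other gene. The sequences below are those of 4 probes, shown to compare probes of neighbouring genes. Probes were aligned only with one another, not with transcripts, so the sequences do not settle which transcripts a signal comes from. Of the 4, only the Cyp4a14 probe is the brightest of its gene, whose levels are reported below. Capitals mark where the Cyp4a10 and Cyp4a31 probes differ over the stretch in which they align.
Cyp4a10, probe A_52_P6588: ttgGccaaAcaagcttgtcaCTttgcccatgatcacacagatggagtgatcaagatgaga
Cyp4a31, probe A_55_P2024033: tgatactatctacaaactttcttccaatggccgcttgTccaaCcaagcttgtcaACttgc
Cyp4a10, probe A_55_P2092030: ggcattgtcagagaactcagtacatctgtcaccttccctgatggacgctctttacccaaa
Cyp4a14, probe A_66_P118338: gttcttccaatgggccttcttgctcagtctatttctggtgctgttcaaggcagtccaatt
Bases 1 to 26 of the first probe lie over bases 35 to 60 of the second. They are alike at 22 of these 26 bases and differ at 4. The Cyp4a10 probe A_52_P6588 spans 482 bases of the genome at chr4:115197445-115197926, so it crosses a splice junction, whereas the Cyp4a14 probe lies within 60 bases of the minus strand at chr4:115168609-115168668. By the transcripts that the probes list, signals named for Cyp4a10 may include Cyp4a32, and signals named for Cyp4a12a may include Cyp4a12b.

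The arrays were alike in quality, with 50.1% to 57.4% of probes well above background and 0 saturated spots. All 8 Cyp4a probes kept were well above background on 48 of 48 arrays. Each of 6 slides held 1 mouse of every group, and the slides were washed in 2 batches of 3. Before any comparison, 2 arrays were found to lie nearer to the mean of another group than to their own: replicate 2 of fed p110αhep+/+ mice on CTRL diet and replicate 3 of fed p110αhep−/− mice on HFD, both nearest to fed p110αhep−/− mice on CTRL diet. Without both, 15 of the 18 counts of Cyp4a genes called stayed within 1.5 times, and the other counts are given beside their results. The floxed gene itself, Pik3ca, did not fall in p110αhep−/− mice: its log2 difference lay between 0.07 and 0.58 in the 4 genotype comparisons, so its probe gave no check of the deletion. The deletion removes a part of the gene, and whether the probe lies in that part is not given in the sources used here, so this value does not show that the deleted sequence was still transcribed. All 12 hepatocyte markers were kept, and their summed log2 signal ranged from 20.98 to 21.16. Of 7 kidney tubule markers 4 were kept, with sums of 7.52 to 8.24 in every group, and Slc5a2, Kap and Umod were not above background. Summed marker signals ranged from 14.51 to 16.29 for Kupffer cells (11 of 12 markers kept), 14.55 to 15.77 for stellate cells (10 of 10), 13.78 to 14.64 for endothelium (9 of 9) and 12.52 to 14.39 for lymphocytes (6 of 8, without Cd8a and Cd79a).

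All levels are normalized log2 signals of a gene's brightest probe and are compared only within a probe. A gene is said to be called, or to have risen or fallen, where limma's test over all 48 arrays gave an adjusted p of at most 0.05 (Benjamini-Hochberg over all probes kept) and the fold change was over 1.5. Log2 differences come from that fit, which weights arrays, so they can differ slightly from a difference of plain means. The p-values set a difference against the spread between mice of the same group, estimated for each probe over all 8 groups together. A group whose mice lie closer together or farther apart is not given a spread of its own.

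**Figure D1:**
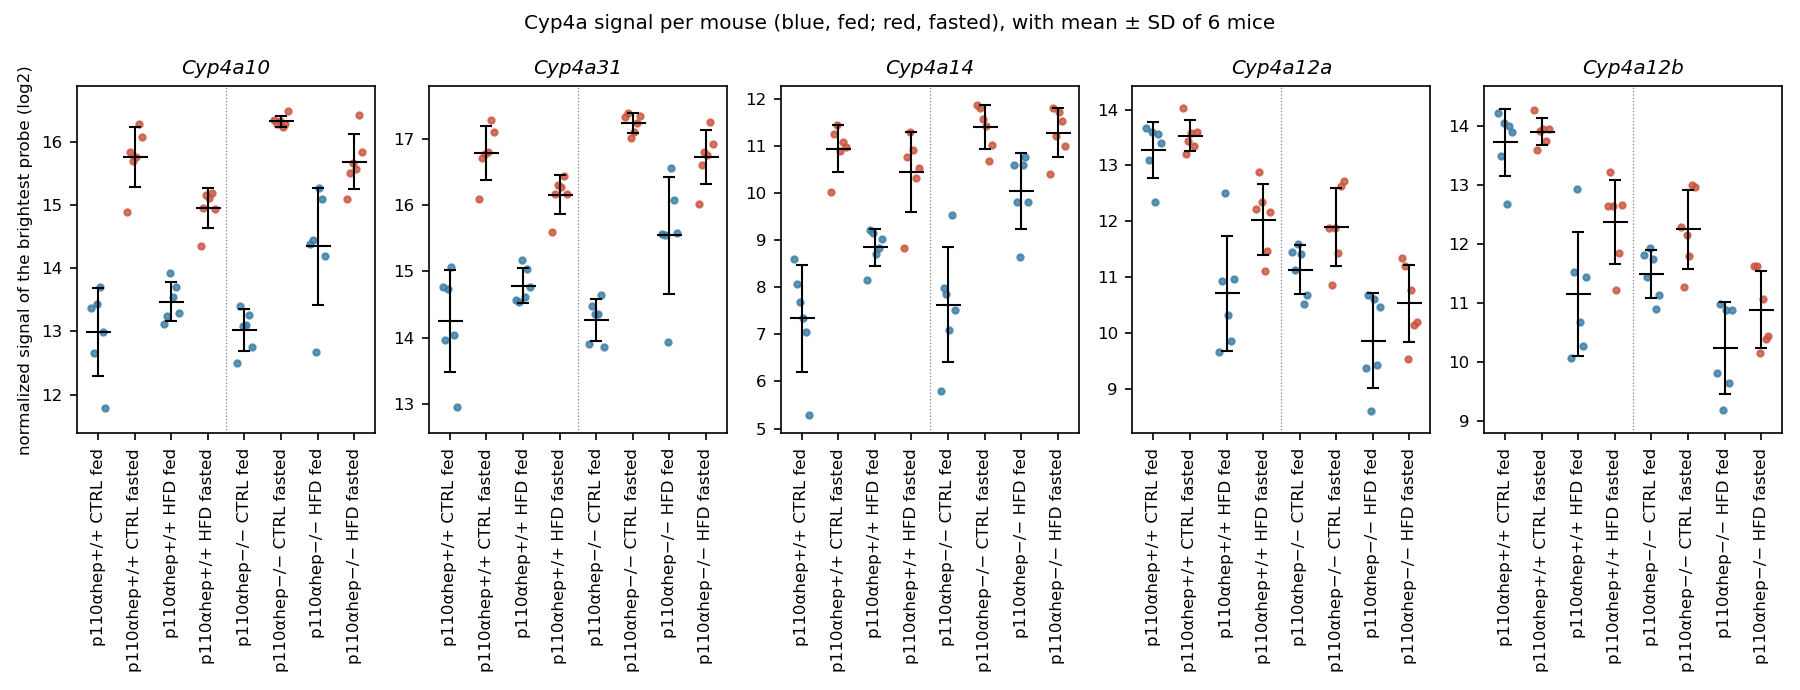
Normalized log2 signal of the brightest probe of each Cyp4a gene (vertical axis, scaled per gene) in each of the 8 groups; points are mice, blue for fed and red for fasted, and bars are the mean ± SD of 6 mice. Cyp4a10, Cyp4a31 and Cyp4a14 are lowest in fed mice on CTRL diet, whereas Cyp4a12a and Cyp4a12b are highest in p110αhep+/+ mice on CTRL diet.

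The first comparison was fasting, the state in which the liver takes up fatty acids from adipose tissue. On CTRL diet, Cyp4a10, Cyp4a31 and Cyp4a14 rose on fasting in both genotypes, and Cyp4a12a and Cyp4a12b were not called in either. In p110αhep+/+ mice, 3 of the 5 Cyp4a genes were called, against 5.45% of all genes tested. The Cyp4a10 level ran from 11.79 through a median of 13.18 to 13.70 in fed mice and from 14.89 through 15.80 to 16.28 in fasted mice. The lowest fasted mouse was thus above the highest fed mouse. The rise was 6.85-fold (log2 difference 2.78 ± 0.24 SE, limma adjusted p = 2.14e-12), and within the 2 washing batches the log2 differences were 2.29 and 3.12.

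Cyp4a14 had the largest fold change of the 5 genes in this comparison. Its level ran from 5.30 through 7.52 to 8.60 in fed and from 10.02 through 11.03 to 11.45 in fasted p110αhep+/+ mice on CTRL diet. Again the groups did not overlap, which held for 11.8% of all genes in this comparison. It rose 12.96-fold (3.70 ± 0.40 SE, limma adjusted p = 1.47e-09). Replicate 6 of the fed group, at 5.30, was the lowest of all 48 mice, and the same mouse was the lowest for Cyp4a10 and Cyp4a31. The lowest raw signal of the Cyp4a14 probe, 40, lay within the 27 to 56 of the unusable Cyp4a29 probe, although flagged well above background. Background was not subtracted, so Cyp4a14 fold changes against fed mice on CTRL diet are uncertain in size. This holds in both genotypes, as the lowest such p110αhep−/− mouse was at 5.80. With each mouse left out in turn, the Cyp4a14 log2 difference stayed between 3.25 and 4.03. Cyp4a31 rose 5.84-fold (2.54 ± 0.24 SE, limma adjusted p = 2.34e-11), also with no overlap. The log2 differences of Cyp4a12a and Cyp4a12b were 0.15 ± 0.35 and 0.08 ± 0.35 (SE), with 95% intervals of -0.55 to 0.85 and -0.63 to 0.78.

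In p110αhep−/− mice on CTRL diet the same 3 genes were called, against 7.09% of all genes tested, and none of the 3 overlapped between fed and fasted mice, which held for 15.6% of all genes. Cyp4a10 ran from 12.50 through 13.10 to 13.41 in fed mice and from 16.23 through 16.30 to 16.48 in fasted mice. The 6 fasted mice lay unusually close together, with an SD of 0.09 against 0.33 in the fed mice. The rise of Cyp4a10 was 9.77-fold (3.29 ± 0.24 SE), that of Cyp4a31 7.67-fold (2.94 ± 0.24) and that of Cyp4a14 14.2-fold (3.83 ± 0.41), with limma adjusted p-values of 2.11e-14, 3.91e-13 and 5.31e-10. Cyp4a12a and Cyp4a12b differed by 0.60 ± 0.35 and 0.59 ± 0.36 (SE) and were not called.

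On HFD the fasting differences of Cyp4a10, Cyp4a31 and Cyp4a14 were smaller. In p110αhep+/+ mice all 5 genes kept were called, against 4.72% of all genes tested. Cyp4a10 ran from 13.11 through 13.42 to 13.92 in fed and from 14.35 through 15.02 to 15.19 in fasted mice, without overlap, as for Cyp4a31 and 10.9% of all genes. It rose 2.87-fold (1.52 ± 0.23 SE, limma adjusted p = 1.58e-06), Cyp4a31 2.68-fold (1.42 ± 0.23) and Cyp4a14 3.29-fold (1.72 ± 0.39). The lowest Cyp4a10 and Cyp4a31 levels of the fasted group were both those of replicate 1, at 14.35 and 15.59. This was also the single comparison in which the Cyp4a12 genes rose on fasting. Cyp4a12a ran from 9.65 through 10.62 to 12.51 in fed and from 11.10 through 12.19 to 12.88 in fasted mice, with overlap, because replicate 3 of the fed group reached 12.51. It rose 2.54-fold (1.34 ± 0.33 SE, limma adjusted p = 0.00195), and Cyp4a12b rose 2.33-fold (1.22 ± 0.34 SE, limma adjusted p = 0.00549). Within washing batches the Cyp4a12a log2 difference was 2.17 in batch 1 and 0.46 in batch 2.

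In p110αhep−/− mice on HFD, 2 of the 5 genes were called on fasting, against 5.89% of all genes tested, and all 5 overlapped between fed and fasted mice, where 8.45% of all genes did not. Cyp4a10 ran from 12.67 through 14.41 to 15.27 in fed and from 15.09 through 15.62 to 16.42 in fasted mice. The fed mice were widely spread, and replicate 3, at 12.67, stood below the other five. Cyp4a10 rose 2.19-fold (1.13 ± 0.26 SE, limma adjusted p = 0.00109) and Cyp4a31 2.00-fold (1.00 ± 0.26 SE, limma adjusted p = 0.00356). Cyp4a14 differed by 1.14 ± 0.45 (SE, limma adjusted p = 0.056) and was called without replicate 5 of the fed mice or replicate 1 of the fasted mice (1.29 each). Cyp4a12a and Cyp4a12b differed by 0.52 ± 0.39 and 0.55 ± 0.39 (SE).

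Whether the fasting difference itself changed with the diet was tested as an interaction. In p110αhep−/− mice 3 of the 5 genes were called, against 2.9% of all genes tested. The difference of Cyp4a10 was smaller on HFD by 2.16 ± 0.36 on the log2 scale (SE, limma adjusted p = 6.01e-05), that of Cyp4a31 by 1.94 ± 0.36 (limma adjusted p = 0.000284) and that of Cyp4a14 by 2.70 ± 0.61 (limma adjusted p = 0.0032), each signed as -2.16, -1.94 and -2.70. All 3 stayed called with any 1 mouse left out, and in washing batch 2 alone, with 3 mice a group, they were -1.61, -1.41 and -2.06 and not called. In p110αhep+/+ mice 2 of the 5 were called, against 0.893% of all genes tested: Cyp4a10 at -1.25 ± 0.33 (SE, limma adjusted p = 0.0312) and Cyp4a14 at -1.98 ± 0.56 (SE, limma adjusted p = 0.0494). Cyp4a31 was at -1.12 ± 0.33 with a limma adjusted p of 0.0576. These p110αhep+/+ calls lie at the threshold, and 0 of the 5 genes were called with no filter on dim probes, no correction of the washing batch, no array weights or only the arrays compared. Of 24 settings with 1 mouse left out, Cyp4a10 lost its call in 7 (replicates 5 and 6 of fasted and 6 of fed mice on CTRL diet; replicates 1 and 2 of fasted and 3 and 4 of fed mice on HFD), with values from -1.40 to -0.97. Cyp4a14 lost it in 19, all but replicates 1 and 3 of fed and 1 of fasted mice on CTRL diet and 1 of fed and 3 of fasted mice on HFD, with values from -2.31 to -1.53. Cyp4a31 gained a call in 4 (replicates 1, 3 and 4 of fed and 1 of fasted mice on CTRL diet), with values from -1.28 to -0.82. The other Cyp4a31 probe, which also lists Cyp4a10, was called with all mice, at -1.41 (limma adjusted p = 0.0187). Without the 2 arrays that lay nearer to another group, 1 of the 5 was called.

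The Cyp4a12 genes had interactions of the opposite sign in p110αhep+/+ mice, at 1.19 ± 0.48 for Cyp4a12a and 1.14 ± 0.49 for Cyp4a12b (SE), and neither was called (limma adjusted p = 0.201 and 0.231). Whether fasting acted differently in the 2 genotypes was tested in the same way. On CTRL diet 0 of the 5 genes were called against 1.33% of all genes, with 0 at an unadjusted p under 0.05 in limma. On HFD 0 were called against 1.39%, again with 0 at an unadjusted p under 0.05. For Cyp4a10 the 95% intervals were -0.17 to 1.19 on CTRL diet and -1.10 to 0.31 on HFD, so log2 differences of about that size between the genotypes remain possible.

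**Figure D2:**
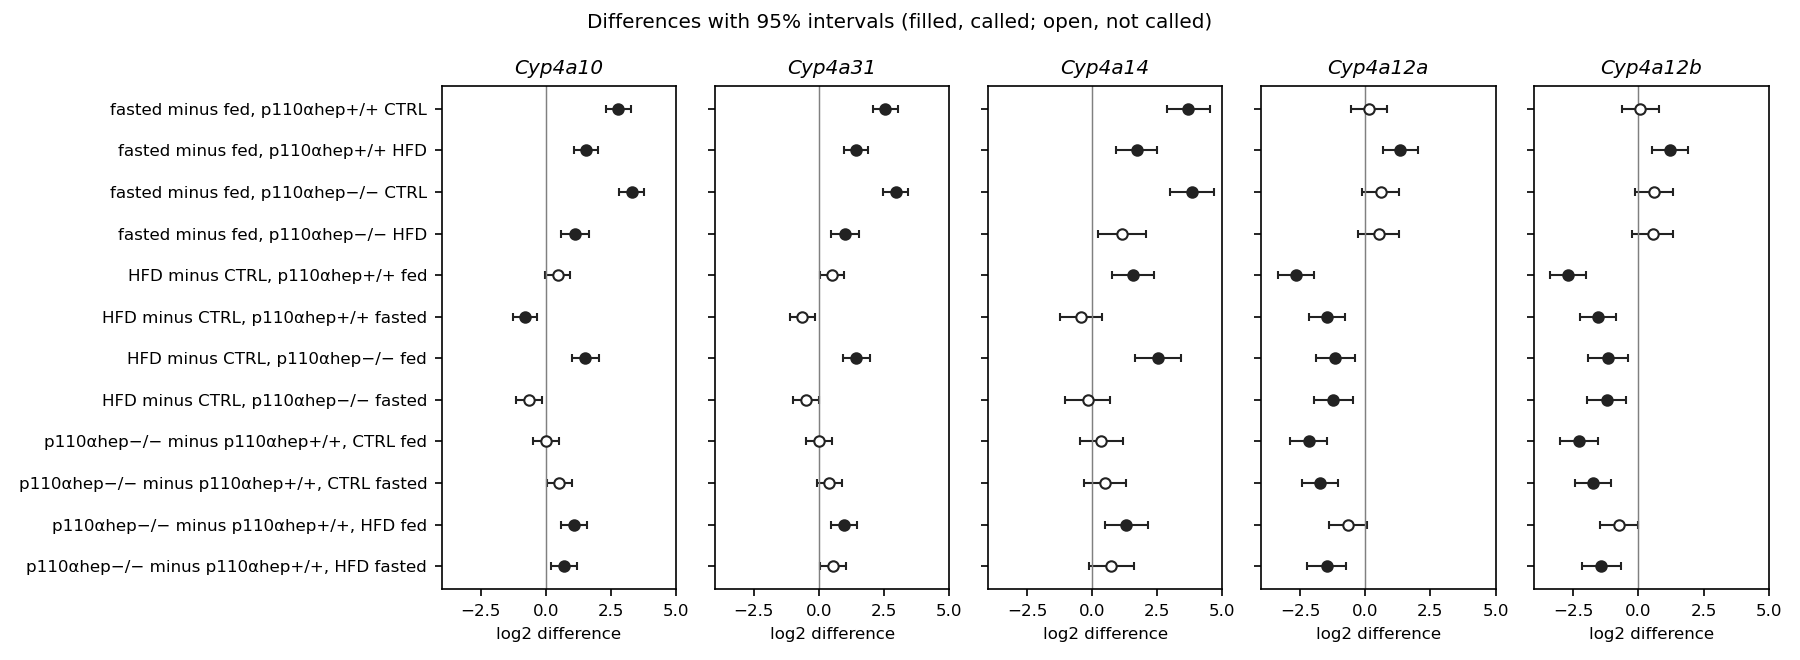
Log2 differences of the 5 Cyp4a genes (horizontal axis) in the 12 comparisons of fasting, diet and genotype (rows), with 95% intervals from limma; filled points were called, open points were not. The fasting rows lie to the right of 0 for Cyp4a10, Cyp4a31 and Cyp4a14, and the HFD rows lie to the left of 0 for Cyp4a12a and Cyp4a12b.

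The second comparison was diet. HFD lowered Cyp4a12a and Cyp4a12b in all 4 settings of genotype and nutritional state, while the differences of Cyp4a10, Cyp4a31 and Cyp4a14 were above 0 in fed and below 0 in fasted mice. In fed p110αhep+/+ mice 3 of the 5 genes were called, against 3.74% of all genes tested. Cyp4a12a ran from 12.34 through 13.48 to 13.67 on CTRL diet and from 9.65 through 10.62 to 12.51 on HFD. A single HFD mouse, replicate 3 at 12.51, overlapped the CTRL group, whose lowest mouse, replicate 4, was at 12.34. Cyp4a12a fell 6.36-fold (-2.67 ± 0.34 SE, limma adjusted p = 1.55e-07) and Cyp4a12b 6.42-fold (-2.68 ± 0.34 SE, limma adjusted p = 1.76e-07). The Cyp4a12a difference was -2.69 and -2.46 within the 2 washing batches.

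In the same mice Cyp4a14 rose on HFD. Its level ran from 5.30 through 7.52 to 8.60 on CTRL diet and from 8.16 through 8.93 to 9.21 on HFD, with 1 CTRL mouse inside the HFD range. The rise was 2.94-fold (1.56 ± 0.40 SE, limma adjusted p = 0.00337), and it was 1.38 and 1.65 in the washing batches, called in neither (limma adjusted p = 0.0887 and 0.0894 with 3 mice a group). Cyp4a10 and Cyp4a31 differed by 0.44 ± 0.23 and 0.48 ± 0.23 (SE) and were not called. Without replicate 4 of the CTRL mice Cyp4a31 was called, at 0.64.

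In fasted p110αhep+/+ mice 3 of the 5 were called, against 2.83% of all genes tested. Cyp4a12a ran from 13.20 through 13.50 to 14.02 on CTRL diet and from 11.10 through 12.19 to 12.88 on HFD. No mouse overlapped for it or for Cyp4a12b, and 5.87% of all genes were likewise without overlap. Cyp4a12a fell 2.78-fold (-1.48 ± 0.34 SE, limma adjusted p = 0.00235) and Cyp4a12b 2.91-fold (-1.54 ± 0.35 SE, limma adjusted p = 0.00173). Cyp4a10 fell 1.75-fold (-0.81 ± 0.23 SE, limma adjusted p = 0.0151), from a range of 14.89 to 16.28 to one of 14.35 to 15.19, and the groups overlapped because replicate 1 of the CTRL mice, at 14.89, lay inside the HFD range. Its call was lost without replicate 5 of the CTRL mice (-0.68, limma adjusted p = 0.0621). Cyp4a31 was at -0.64 ± 0.23 (SE) and was called without replicate 1 of the CTRL mice (-0.76, limma adjusted p = 0.0238), and Cyp4a14 was at -0.42 ± 0.40.

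In fed p110αhep−/− mice all 5 genes were called, against 2.33% of all genes tested, 3 up and 2 down. Cyp4a14 ran from 5.80 through 7.69 to 9.53 on CTRL diet and from 8.65 through 10.21 to 10.77 on HFD. It overlapped because replicate 5 of the CTRL mice reached 9.53 and replicate 3 of the HFD mice stayed at 8.65. Its rise was 5.72-fold (2.52 ± 0.44 SE, limma adjusted p = 6.39e-05). Cyp4a10 rose 2.85-fold (1.51 ± 0.26 SE, limma adjusted p = 4.49e-05) and Cyp4a31 2.70-fold (1.43 ± 0.25 SE, limma adjusted p = 9.51e-05). Replicate 3 of the HFD mice, 1 of the 2 arrays that lay nearer to another group, had the lowest level of all 3 genes in its group. The Cyp4a10 difference was 2.04 in washing batch 1 and 0.85 in batch 2, where no Cyp4a gene was called.

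Cyp4a12a ran from 10.52 through 11.28 to 11.59 in these CTRL mice and from 8.60 through 9.94 to 10.67 on HFD, with overlap. It fell 2.22-fold (-1.15 ± 0.37 SE, limma adjusted p = 0.0362) and Cyp4a12b 2.25-fold (-1.17 ± 0.38 SE, limma adjusted p = 0.0353). Both calls were close to the threshold. They were lost without any 1 of replicates 1, 3 and 4 of the CTRL mice and 1, 3 and 5 of the HFD mice, that of Cyp4a12a also without replicate 2 of the CTRL mice. The values then ran from -1.35 to -1.02 for Cyp4a12a and from -1.36 to -1.01 for Cyp4a12b over all 12 such settings. Without the 2 arrays that lay nearer to another group, 3 of the 5 genes were called, and the Cyp4a12 differences were -1.04 and -1.08.

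In fasted p110αhep−/− mice 2 of the 5 were called, against 1.89% of all genes tested, and all 5 overlapped, where 4.1% of all genes did not. Cyp4a12a ran from 10.87 through 11.87 to 12.71 on CTRL diet and from 9.53 through 10.48 to 11.33 on HFD. The 2 CTRL mice highest in Cyp4a12a were replicates 5 and 6. The fall was 2.34-fold for Cyp4a12a (-1.23 ± 0.37 SE, limma adjusted p = 0.0249) and 2.32-fold for Cyp4a12b (-1.22 ± 0.37 SE, limma adjusted p = 0.0283). Cyp4a12a lost its call without replicate 5 or 6 of the CTRL mice or 3, 5 or 6 of the HFD mice, and Cyp4a12b also without replicate 1 of the CTRL mice, with values from -1.44 to -1.03 and from -1.44 to -1.07. Cyp4a10, Cyp4a31 and Cyp4a14 were at -0.65 ± 0.25, -0.51 ± 0.25 and -0.18 ± 0.43 (SE). Cyp4a10 was called without replicate 5 of the HFD mice (-0.79, limma adjusted p = 0.0412). Its other 2 probes were called with all mice, at -0.81 and -0.73 (limma adjusted p = 0.0354 and 0.0437), as was the Cyp4a31 probe that also lists Cyp4a10, at -0.86 (limma adjusted p = 0.0269).

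The third comparison was genotype, which asks what p110α in hepatocytes does to these genes. On CTRL diet the Cyp4a12 genes were lower in p110αhep−/− mice, and no other Cyp4a gene was called by its brightest probe. In fed mice 2 of the 5 were called, against 3.74% of all genes tested. Cyp4a12a ran from 12.34 through 13.48 to 13.67 in p110αhep+/+ and from 10.52 through 11.28 to 11.59 in p110αhep−/− mice. Neither it nor Cyp4a12b overlapped between genotypes, against 6.24% of all genes without overlap. Cyp4a12a was 4.51-fold lower (-2.17 ± 0.36 SE, limma adjusted p = 1.55e-05) and Cyp4a12b 4.82-fold lower (-2.27 ± 0.36 SE, limma adjusted p = 9.88e-06). The Cyp4a12a difference was -1.61 and -2.49 in the washing batches and ran from -2.32 to -2.05 with each mouse left out. Cyp4a10 and Cyp4a31 differed by 0.01 ± 0.24 and 0.005 ± 0.24 (SE), with 95% intervals of -0.48 to 0.50 and -0.48 to 0.49, and Cyp4a14 by 0.36 ± 0.42.

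In fasted mice on CTRL diet 2 of the 5 were called, against 3.23% of all genes tested. Cyp4a12b ran from 13.60 through 13.93 to 14.28 in p110αhep+/+ and from 11.28 through 12.23 to 13.01 in p110αhep−/− mice. All 6 p110αhep−/− mice lay below all 6 controls for both Cyp4a12 genes, and 10.3% of all genes had no overlap in this comparison. Cyp4a12b was 3.37-fold lower (-1.75 ± 0.35 SE, limma adjusted p = 0.000177) and Cyp4a12a 3.32-fold lower (-1.73 ± 0.34 SE, limma adjusted p = 0.000179). Cyp4a10 was at 0.52 ± 0.23 (SE, limma adjusted p = 0.104) and was called without replicate 5 of the p110αhep+/+ mice (0.65, limma adjusted p = 0.0481). Its other 2 probes were called, at 0.64 and 0.61 (limma adjusted p = 0.0449 and 0.0430), as was the Cyp4a31 probe that also lists Cyp4a10, at 0.67 (limma adjusted p = 0.0405). By their brightest probes Cyp4a31 and Cyp4a14 were at 0.40 ± 0.23 and 0.49 ± 0.40 (SE).

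On HFD, Cyp4a10, Cyp4a31 and Cyp4a14 were higher in fed p110αhep−/− mice. There 3 of the 5 were called, against 6.23% of all genes tested, and all 5 overlapped, where 13% of all genes did not. Cyp4a10 ran from 13.11 through 13.42 to 13.92 in p110αhep+/+ and from 12.67 through 14.41 to 15.27 in p110αhep−/− mice. Apart from replicate 3, every p110αhep−/− mouse was above the highest control. Cyp4a10 was 2.11-fold higher (1.07 ± 0.24 SE, limma adjusted p = 0.000639), Cyp4a31 1.93-fold (0.95 ± 0.24 SE, limma adjusted p = 0.00225) and Cyp4a14 2.48-fold (1.31 ± 0.42 SE, limma adjusted p = 0.0134). The Cyp4a10 difference was 1.66 in washing batch 1 and 0.45 in batch 2 (limma adjusted p = 0.000260 and 0.431), and that of Cyp4a14 was 1.96 and 0.66. The Cyp4a12 genes, already low in fed HFD controls, were at -0.66 ± 0.36 and -0.76 ± 0.36 (SE, limma adjusted p = 0.163 and 0.109).

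In fasted mice on HFD 3 of the 5 were called, against 6.54% of all genes tested, and all 5 overlapped, where 14% of all genes did not. Cyp4a12a ran from 11.10 through 12.19 to 12.88 in p110αhep+/+ and from 9.53 through 10.48 to 11.33 in p110αhep−/− mice. They overlapped because replicate 4 of the controls, at 11.10, lay below replicates 1 and 2 of the p110αhep−/− mice, at 11.33 and 11.20. Cyp4a12a was 2.79-fold lower (-1.48 ± 0.37 SE, limma adjusted p = 0.00148) and Cyp4a12b 2.69-fold lower (-1.43 ± 0.37 SE, limma adjusted p = 0.00239). Cyp4a10 was 1.60-fold higher (0.68 ± 0.25 SE, limma adjusted p = 0.0308). That call was lost without replicate 1 or 2 of the controls or 5 or 6 of the p110αhep−/− mice, with values from 0.54 to 0.81. Cyp4a31 was at 0.53 ± 0.25 (SE) and was called without replicate 1 of the p110αhep−/− mice (0.68, limma adjusted p = 0.0392), and Cyp4a14 was at 0.73 ± 0.43. The Cyp4a31 probe that also lists Cyp4a10 was called with all mice, at 0.81 (limma adjusted p = 0.0136), and did not overlap between genotypes.

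Whether the genotypes responded differently to HFD was tested as an interaction. In fed mice 0 of the 5 genes were called in limma, against 1.38% of all genes tested, although 4 of the 5 had an unadjusted p under 0.05. The interaction was 1.07 ± 0.34 for Cyp4a10, 0.95 ± 0.34 for Cyp4a31, 1.52 ± 0.50 for Cyp4a12a and 1.51 ± 0.51 for Cyp4a12b (SE, limma adjusted p = 0.0803, 0.125, 0.0898 and 0.0949). The positive sign means a larger rise of Cyp4a10 and a smaller fall of Cyp4a12a in p110αhep−/− mice. Cyp4a10 was called without replicate 3 of the p110αhep−/− HFD mice (1.20) or replicate 6 of the p110αhep+/+ CTRL mice (1.35), and Cyp4a31 without the latter (1.25). Cyp4a12a and Cyp4a12b were called without replicate 3 of the p110αhep+/+ HFD mice (1.76 and 1.75). Without the 2 arrays that lay nearer to another group, 2 of the 5 were called, Cyp4a10 at 1.27 and Cyp4a31 at 1.13. In fasted mice 0 of the 5 were called in limma, against 1.86% of all genes tested, with 0 at an unadjusted p under 0.05.

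Markers of other cells moved with some of these results. The summed log2 signal of adipocyte markers (4 of 5 kept; Adipoq was not above background) lay between 7.92 and 8.48 in p110αhep−/− mice on CTRL diet, between 8.46 and 11.11 in p110αhep−/− mice on HFD, between 9.32 and 13.40 in p110αhep+/+ mice on CTRL diet and between 12.51 and 15.19 in p110αhep+/+ mice on HFD. Of its members, Cfd (complement factor D) had group means from 5.81 to 13.83, whereas those of Plin1 ran from 5.49 to 5.73, of Retn from 5.56 to 5.89 and of Lep from 7.12 to 7.62. The sum for bile duct markers (6 of 7 kept, without Cftr) lay between 9.58 and 10.43 in p110αhep−/− mice and between 10.73 and 12.46 in p110αhep+/+ mice. It also moved with fasting in p110αhep−/− mice, from 9.93 to 10.35 in fed to 9.58 to 9.86 in fasted mice on CTRL diet, with 2 of 6 called lower, and from 10.08 to 10.43 in fed to 9.72 to 10.13 in fasted mice on HFD, with 1 called lower. In p110αhep+/+ mice 1 was called lower on CTRL diet and 0 on HFD. Stellate cell and fibroblast markers moved with fasting: 4 of 10 fell in p110αhep+/+ mice on CTRL diet, where the sum went from 14.70 to 15.21 in fed to 14.55 to 15.14 in fasted mice, and 5 of 10 fell in p110αhep−/− mice on CTRL diet (14.99 to 15.31 in fed, 14.60 to 15.05 in fasted mice), while on HFD 0 fell in p110αhep+/+ and 4 in p110αhep−/− mice. On HFD 3 and 4 of them were higher in fed and fasted p110αhep+/+ mice. By genotype 1 and 2 of the 10 were lower in fed and fasted p110αhep−/− mice on CTRL diet, and 3 and 5 on HFD, the last with sums of 14.97 to 15.26 against 14.95 to 15.61 in controls. Lymphocyte sums were 13.80 to 14.14 in fasted p110αhep−/− mice on CTRL diet against 13.21 to 13.48 in their controls. They were 13.08 to 13.69 in fasted against 12.53 to 12.94 in fed p110αhep+/+ mice on HFD. In each comparison 1 of the 6 markers kept was called higher. The same count was called higher on fasting in p110αhep−/− mice on CTRL diet (13.09 to 13.94 fed, 13.80 to 14.14 fasted). It was also called on fasting in p110αhep−/− mice on HFD (12.52 to 13.77 fed, 13.31 to 14.39 fasted). By genotype it was called in fasted mice on HFD (13.31 to 14.39 against 13.08 to 13.69 in controls). Of these markers, Cd4 had group means from 12.5 to 13.87, and Cd3e, the next highest, from 9.12 to 9.42. Endothelial sums were 14.48 to 14.64 in fasted p110αhep−/− mice on CTRL diet against 14.05 to 14.45 in controls, with 0 of 9 markers called, and 14.44 to 14.59 in fasted p110αhep−/− mice on HFD against 13.78 to 14.47 in controls, with 3 of 9 called higher (median 0.41 against 0.03 over all genes). In fed p110αhep−/− mice on HFD they were 14.26 to 14.43, below all the fasted ones, and 2 of 9 were called higher on fasting. Of 11 Kupffer cell markers, 2 were higher on HFD in fed and 2 in fasted p110αhep+/+ mice, and by genotype on HFD 2 were lower in fed p110αhep−/− mice and 2 lower and 1 higher in fasted ones. The part of these markers in the Cyp4a differences was not tested.

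Across the 8 groups, Cyp4a10, Cyp4a31 and Cyp4a14 were lowest in fed p110αhep+/+ mice on CTRL diet and highest in fasted p110αhep−/− mice on CTRL diet. The highest group mean was above the lowest by 3.33 on the log2 scale for Cyp4a10, 2.98 for Cyp4a31 and 4.05 (16.6-fold) for Cyp4a14. The last is uncertain in size, since the lowest Cyp4a14 levels lay near the signal of unusable probes. Cyp4a12a and Cyp4a12b were highest in fasted p110αhep+/+ mice on CTRL diet and lowest in fed p110αhep−/− mice on HFD, 3.67 on the log2 scale (12.7-fold) apart in both genes. For Cyp4a10 the order from high to low was fasted p110αhep−/− CTRL, fasted p110αhep+/+ CTRL, fasted p110αhep−/− HFD, fasted p110αhep+/+ HFD, fed p110αhep−/− HFD, fed p110αhep+/+ HFD, fed p110αhep−/− CTRL and fed p110αhep+/+ CTRL. Cyp4a31 had the same order, and in Cyp4a14 fasted p110αhep−/− HFD mice stood above fasted p110αhep+/+ CTRL mice. For Cyp4a12a and Cyp4a12b the order was fasted and fed p110αhep+/+ CTRL, fasted p110αhep+/+ HFD, fasted and fed p110αhep−/− CTRL, fed p110αhep+/+ HFD, and fasted and fed p110αhep−/− HFD. In each gene all 7 pairs of neighbours in the order overlapped in range.

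The 5 probes of Cyp4a10 and Cyp4a31 gave similar differences, but their calls split near the threshold. The 3 Cyp4a10 probes lay within 0.03 to 0.18 of one another on the log2 scale in the 4 fasting comparisons. The 2 Cyp4a31 probes differed most in fasted against fed p110αhep−/− mice on CTRL diet, by 0.50. In 4 of the 12 comparisons shown only 1 of the 2 was called, for example HFD in fasted p110αhep−/− mice (-0.86 and -0.51), and in 2 of the 12 the Cyp4a10 probes split, with 2 of 3 called. The probe that also lists Cyp4a10 gave 3.44 and the probe that lists Cyp4a31 alone gave 2.94 in fasted p110αhep−/− mice on CTRL diet. Since transcripts of Cyp4a10, Cyp4a31 and Cyp4a32 can share probes, these are not independent measurements of 3 genes.

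**Figure D3:**
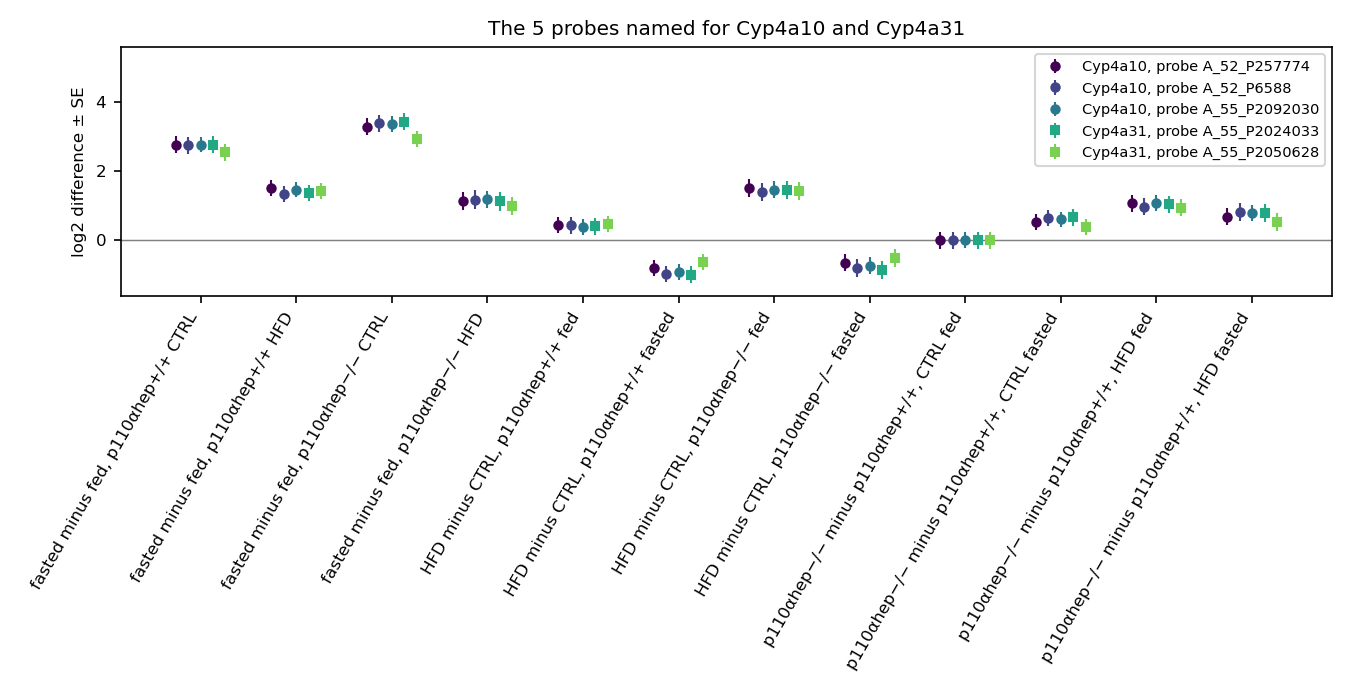
Log2 difference ± SE (vertical axis) for each of the 3 Cyp4a10 probes (circles) and 2 Cyp4a31 probes (squares) in the 12 comparisons (horizontal axis). The probes of both genes keep the same sign except in fed mice on CTRL diet compared by genotype, where all 5 lie within 0.01 of 0, and the Cyp4a31 probe A_55_P2050628 gives the smallest rise in fasted p110αhep−/− mice on CTRL diet, 2.94.

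The pattern over the 8 group means, each centred on its own mean, split the family in the same way. The root mean square difference was 0.13 between Cyp4a10 and Cyp4a31 and 0.45 between Cyp4a10 and Cyp4a14, against 1.64 between Cyp4a10 and Cyp4a12a. It was 0.038 between Cyp4a12a and Cyp4a12b, whose probes can bind a common transcript. Among all other genes, those nearest to Cyp4a10 were Acot1 (0.26), Acot5 (0.35) and an unnamed transcript of probe A_55_P2570418 (0.44). Acot1 and Acot5 encode acyl-CoA thioesterases, which split fatty acyl-CoA in cytosol and peroxisomes. The same 3 were nearest to Cyp4a31 (Acot1 at 0.20), whereas Cyp4a14 was nearest to Mt1, a metallothionein (0.64), then Acot1 (0.66) and Acot5 (0.69). The genes nearest to Cyp4a12a were Mup-ps12 (0.65), ENSMUST00000178292 (0.70) and Gm11128 (0.70), and the same 3 came first for Cyp4a12b. These are descriptions of 8 means. Mup-ps12 belongs to a large family of near-identical genes, and whether its probe also reads their transcripts was not tested.

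**Figure D4:**
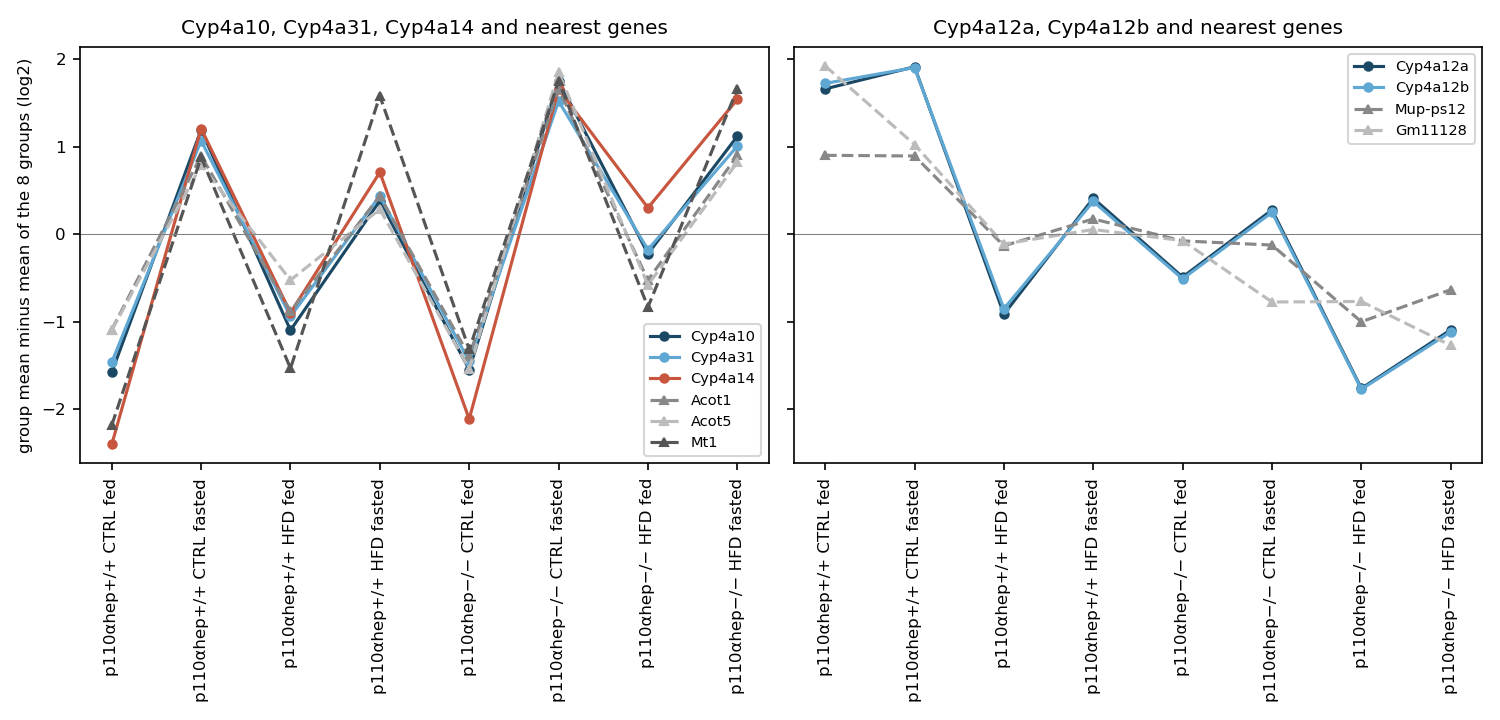
Group mean minus the mean of the 8 groups (log2, vertical axis) in each group (horizontal axis) for the Cyp4a genes (solid lines) and for their nearest named genes (dashed lines). Cyp4a10 and Cyp4a31 run with Acot1, at root mean square differences of 0.26 and 0.20, whereas Cyp4a12a and Cyp4a12b lie on one line and Mup-ps12 is 0.65 away.

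Mice of the same group also varied together in some pairs. After each mouse's deviation from its group mean was taken, Cyp4a10 and Cyp4a14 correlated at r = 0.66 and rho = 0.44 over 48 mice (permutation within groups, two-sided p = 2e-05 and 0.00455; adjusted over 3 pairs 3e-05 and 0.00683). Without the 2 mice farthest from the median r was 0.53, and it was 0.55 and 0.74 in the washing batches. For Cyp4a12a and Cyp4a12b r was 0.99 and rho 0.98 (permutation p = 1e-05 each, the smallest that the draws can give; adjusted 3e-05), 0.99 without the 2 farthest mice and 0.99 in both batches. Cyp4a10 and Cyp4a12a showed r = 0.08 and rho = -0.03 (permutation p = 0.651 and 0.837, unchanged by the adjustment), -0.09 without the 2 farthest mice and -0.14 and 0.23 in the batches. The 2 Cyp4a12 probes may read the same transcripts, so their r describes the probes.

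The genes that regulate and assist the CYP4A enzymes were followed in lists. Ppara itself rose on fasting on CTRL diet, 1.58-fold in p110αhep+/+ (0.66 ± 0.07 SE, limma adjusted p = 7.9e-10) and 1.72-fold in p110αhep−/− mice (0.78 ± 0.07 SE, limma adjusted p = 8.41e-12). On HFD its fasting differences were 0.31 ± 0.07 and 0.39 ± 0.08 (SE), under the fold required, and in the 4 genotype comparisons it lay between -0.13 and 0.12. Por, the electron donor, rose about 2-fold on fasting in all 4 settings (1.01 to 1.11 on the log2 scale) and was higher in p110αhep−/− mice on HFD, by 0.75 ± 0.13 fed and 0.64 ± 0.13 fasted (SE, limma adjusted p = 1.31e-05 and 0.000154). Of 19 genes for PPARα, its partners and co-regulators, 2 were higher and 1 lower in fasted p110αhep+/+ mice on CTRL diet: Ppara and Ppargc1a, a coactivator (0.93 ± 0.14), rose, and Ppard, a related receptor, fell (-0.61). Pparg, the receptor of that family known from adipocytes, was lower in p110αhep−/− mice by 2.15 ± 0.18 in fed mice on CTRL diet (-2.15) and rose on HFD in all 4 settings (0.73 to 1.33).

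Of other PPARα target genes, 40 were chosen outside the Cyp4a family, and at least 20 of them rose on fasting on CTRL diet in either genotype. In p110αhep+/+ mice 20 were higher and 1 lower, with a median log2 difference of 0.58 against 3.27e-05 over all genes. In p110αhep−/− mice 30 were higher and 0 lower (median 1.01 against -0.0012). On HFD 3 rose and 2 fell on fasting in p110αhep+/+ mice, and 7 rose and 1 fell in p110αhep−/− mice. Acot1 rose by 2.04 ± 0.20 on CTRL diet and 1.35 ± 0.20 on HFD in p110αhep+/+ mice, and Fgf21, a fasting hormone, by 1.91 ± 0.23 on CTRL diet. In fasted against fed p110αhep−/− mice on CTRL diet the leading genes were Pdk4, a kinase that spares glucose (4.13 ± 0.39), Cidec, a lipid droplet protein (4.08 ± 0.42), and Fgf21 (3.43 ± 0.24). On HFD, 14 were higher and 0 lower in fed p110αhep+/+ mice, and 15 and 0 in fed p110αhep−/− mice, led by Cidec (1.93 ± 0.40) and Cd36, a fatty acid transporter (2.36 ± 0.26), respectively. In fasted p110αhep+/+ mice 4 were higher and 5 lower on HFD (median -0.07 against -0.02). In fasted p110αhep−/− mice 1 was higher and 14 lower on HFD, Pdk4 falling by 2.26 ± 0.41. The fasting difference was smaller on HFD by the interaction test for 11 of the 40 in p110αhep+/+ and 29 in p110αhep−/− mice, and larger for 0 in either. It was larger in p110αhep−/− than in p110αhep+/+ mice on CTRL diet for 13 of the 40, led by Cidec (11.3-fold, limma adjusted p = 0.000348), Pdk4 (2.80 on the log2 scale) and Acot2 (2.01), where 0 of the 5 Cyp4a genes were called. All errors here are SE.

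The same targets were compared by genotype. On HFD, where Cyp4a10, Cyp4a31 and Cyp4a14 were higher in fed p110αhep−/− mice, 0 of the 40 were higher and 14 lower (median -0.25 against 0.03), among them Cidec (-4.39 ± 0.42), Pex11a, a protein of peroxisome division (-1.40 ± 0.14), and Cd36 (-1.36 ± 0.25). On CTRL diet 0 were higher and 9 lower in fed mice, and 7 higher and 1 lower in fasted mice, where Pdk4 was higher by 2.39 ± 0.38 and Cd36 lower (-2.38 ± 0.24). In fasted mice on HFD 2 were higher, Txnip (0.80 ± 0.18) and Ehhadh (0.68 ± 0.18), and 10 lower. These lists and the Cyp4a genes were measured in the same mice, and no test compared them.

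Genes that act with or after the CYP4A enzymes were followed in 2 further lists, and some of them, such as Pex11a, Acaa1b, Acot4, Ehhadh and Aldh3a2, are also among the 40 PPARα targets. Of 18 genes of peroxisomal oxidation kept, 10 rose and 0 fell in fasted p110αhep−/− mice on CTRL diet (median 0.71 against -0.0012), with Ehhadh, the bifunctional enzyme of that pathway, at 2.63 ± 0.17, Pex11a at 1.39 ± 0.14 and Acot4 at 1.39 ± 0.15. In p110αhep+/+ mice 4 rose and 0 fell, Crot, which exports shortened chains, by 1.37 ± 0.16 and Ehhadh by 1.30 ± 0.17. On HFD 0 rose on fasting in p110αhep+/+ mice and 1 in p110αhep−/− mice. HFD raised 4 and lowered 0 in fed p110αhep+/+ mice (median 0.26 against -0.01) and raised 7 and lowered 0 in fed p110αhep−/− mice (median 0.49), with all 18 above 0 in both. The fasting difference was smaller on HFD by the interaction test for 4 of the 18 in p110αhep+/+ and 12 in p110αhep−/− mice, and all 18 interactions were below 0 in both. Of 20 partners of omega-oxidation kept, 4 rose and 3 fell in fasted p110αhep−/− mice on CTRL diet. Aldh3a2, the dehydrogenase that oxidizes fatty aldehydes, rose by 0.86 ± 0.14, and Cyp4f14, of the neighbouring CYP4F family, fell by 1.47 ± 0.14. In fed mice Aldh3a2 also rose on HFD (1.05 ± 0.13 in p110αhep+/+ and 1.09 ± 0.15 in p110αhep−/− mice) and Cyp4f14 fell (-1.21 ± 0.13 and -0.84 ± 0.15).

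**Figure D5:**
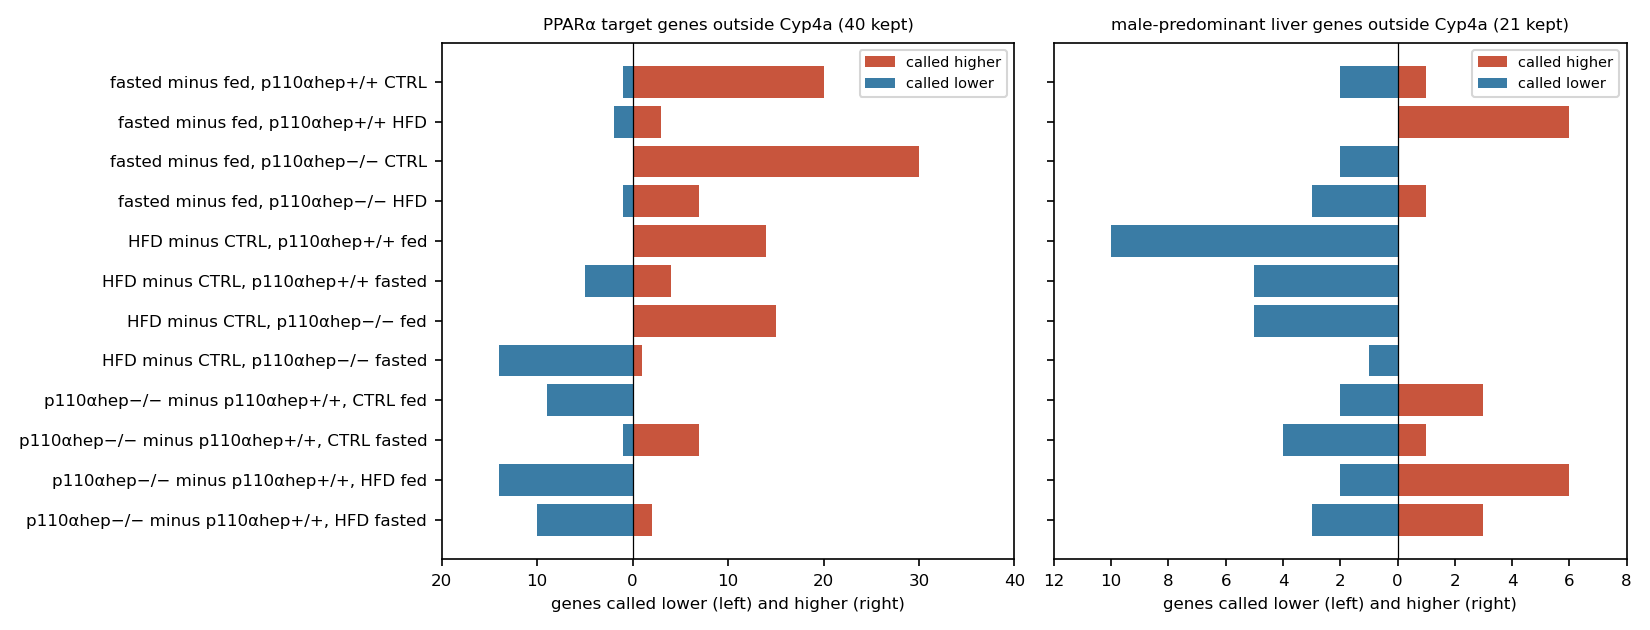
Number of genes called lower (blue, left) and higher (red, right) in each of the 12 comparisons (rows) among 40 PPARα target genes and 21 male-predominant genes, neither list holding a Cyp4a gene. The first list shows 30 higher in fasted p110αhep−/− mice on CTRL diet, and the second 10 lower on HFD in fed p110αhep+/+ mice.

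Cyp4a12a was set beside 21 other male-predominant liver genes. On HFD 10 of them fell and 0 rose in fed p110αhep+/+ mice (median -0.56 against -0.01), 5 and 0 in fasted p110αhep+/+ mice, 5 and 0 in fed and 1 and 0 in fasted p110αhep−/− mice. Hsd3b5, a steroid dehydrogenase of male liver, fell by 6.59 ± 0.70 and Slco1a1, an organic anion carrier, by 2.51 ± 0.44 in fed p110αhep+/+ mice. On fasting on HFD, where both Cyp4a12 genes rose in p110αhep+/+ mice, 6 rose and 0 fell, Hsd3b5 by 2.56 ± 0.69. By genotype the counts differed between settings. In fasted mice on CTRL diet, where the Cyp4a12 genes were over 3-fold lower, 1 was higher and 4 were lower in p110αhep−/− mice (15 of 21 below 0, median -0.20 against 0.0068), and in fasted mice on HFD 3 were higher and 3 lower. In fed mice on CTRL diet, where the Cyp4a12 genes were over 4-fold lower, 3 of the 21 were higher and 2 lower in p110αhep−/− mice (median -0.15 against 0.02), with Egfr at 0.88 ± 0.29 and Cyp2d9, a male-specific P450, at -0.64 ± 0.16. In fed mice on HFD 6 were higher, led by Hsd3b5 (11.3-fold, limma adjusted p = 0.00024), and 2 lower.

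Of 17 female-predominant genes kept, 7 rose and 1 fell on HFD in fed p110αhep+/+ mice and 8 rose and 2 fell in fed p110αhep−/− mice, led by Cyp2b13 at 5.58 ± 0.62 and 5.85 ± 0.68. By genotype 2 were higher and 1 lower in fed p110αhep−/− mice on CTRL diet (median -0.0011 against 0.02). In fasted p110αhep−/− mice on CTRL diet 4 were higher and 2 lower (median 0.36 against 0.0068). On HFD 2 were higher and 2 lower in fed p110αhep−/− mice, and 4 higher and 2 lower in fasted ones. Growth hormone signalling was followed in a list of 14 genes kept. Socs3, an inhibitor of cytokine and growth hormone signals, was higher by 1.14 ± 0.26 in fed and 1.13 ± 0.24 in fasted p110αhep−/− mice on CTRL diet. In fed p110αhep+/+ mice 3 fell on HFD, namely Onecut1 (-2.13 ± 0.48), Socs2 (-1.17 ± 0.37) and Igfals (-0.83 ± 0.12), and 0 rose.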

How the data were processed

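RNA of 48 mouse livers was labelled with cyanine 3 by the authors, hybridized to 1-colour Agilent arrays and read with Agilent Feature Extraction 10.10.1.1. The deposited scanner files hold spot intensity (pixel medians), background intensity and flags, not normalized. A deposited table holds log2 values that the authors filtered, corrected for washing bath and quantile normalized. It served as an alternative.

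From 59305 non-control spots of 62976, outlier spots were dropped, spots of a probe averaged, and probes kept if well above background on at least 5 of 6 arrays of a group (30793 of 56605). Log2 medians were corrected for washing batch with group means protected, quantile normalized and fitted with limma 3.58.1 and statmod 1.5.0 (R 4.3.3), with group means and array weights, in 18 contrasts. Fits were tested on simulated data. A gene stands for its brightest probe. The Cyp4a family and the gene lists were chosen with earlier results of these data known, and the members of the family were then taken by name. Named genes were all Cyp4a genes, their 3 nearest patterns, Ppara, Por, Pik3ca and the list genes with the largest called changes in a comparison, up to 3 a direction, with further genes where a sentence needed them. The number of arrays limits the precision. Probe names and mm9 positions are those of the scanner files.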

Additional observations from a re-analysis of the deposited data

Results flagged for a closer look

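Among 40 sets of 6 mice (5 Cyp4a genes in 8 groups), 2 held a mouse farther from the rest than Dixon's 95% criterion allows. Chance alone gives about 1 set in 20. Both were replicate 1 of fasted p110αhep+/+ mice on HFD, with the lowest Cyp4a10 level (14.35) and the lowest Cyp4a31 level (15.59) of its group.

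The fasting difference changed with diet by the interaction test. In p110αhep+/+ mice the interaction was -1.25 for Cyp4a10 and -1.98 for Cyp4a14. Neither was called with no filter on dim probes, no correction of the washing batch, no array weights or only the arrays compared, and with 1 mouse left out Cyp4a10 lost its call in 7 and Cyp4a14 in 19 of 24 settings. In p110αhep−/− mice it was -2.16 for Cyp4a10, -1.94 for Cyp4a31 and -2.70 for Cyp4a14. Whether these interactions themselves differ between genotypes was not tested.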

How the results depend on the processing

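No difference of a Cyp4a gene that was called turned its direction under any alternative run, and all 41 called differences had the same sign in both washing batches, as against 16 opposite signs among all 90. The calls were made on both batches together, which favours the same sign in each, so the like signs are no separate check. The 18 counts of genes called (of 5) stayed within 1.5 times under processed signals scaled to the 75th percentile, normexp correction, median scaling, the strict filter, slide as a term, the median over probes and adjusted p alone, although not always with the same genes: in the diet by fasting interaction of p110αhep+/+ mice, Cyp4a14 lost its call (limma adjusted p = 0.0661) and Cyp4a31 gained one (0.0392) with processed signals, and likewise with slide as a term (0.0632 and 0.0490). The HFD effect in fed p110αhep−/− mice gave 3 called genes instead of 5 with no filter, with no batch correction, with the replicate block and without the 2 arrays nearer to another group (an alternative chosen after seeing the data). The diet by fasting interaction in p110αhep+/+ mice gave 0 instead of 2 with no filter, no batch correction, no array weights or only the arrays compared, and 1 with washing batch as a term, the replicate block, the deposited values or without those 2 arrays. The genotype by diet interaction in fed mice gave 2 instead of 0 without them. Single calls were also lost for Cyp4a12b on fasting in p110αhep+/+ mice on HFD with only the arrays compared (limma adjusted p = 0.0580), for Cyp4a10 on HFD in fasted p110αhep+/+ mice with no array weights (0.0577) and for Cyp4a10 by genotype in fasted mice on HFD with no batch correction (0.0520). Calls were gained for Cyp4a14 on fasting in p110αhep−/− mice on HFD with normexp, median scaling, the strict filter, the replicate block, no array weights or only the arrays compared (1.13 to 1.24), for Cyp4a31 on HFD in fasted p110αhep+/+ mice and Cyp4a10 on HFD in fasted p110αhep−/− mice with processed signals, median scaling, the median over probes or only the arrays compared, and for Cyp4a31 by genotype in fasted mice on HFD with the first 3 of these.

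With 3 mice a group, washing batch 1 alone gave 0 for fasting in p110αhep−/− mice on HFD, for HFD in fasted mice of either genotype and for the diet by fasting interaction in p110αhep+/+ mice, 4 and 5 for genotype in fasted mice on CTRL diet and HFD, and 2 for the genotype by diet interaction in fed mice. Batch 2 alone gave 3 for fasting in p110αhep+/+ mice on HFD, 1 for genotype in fasted mice on CTRL diet, and 0 for HFD in p110αhep−/− mice, fed or fasted, for genotype on HFD, fed or fasted, and for the diet by fasting interaction in either genotype. The cause was not tested, and each batch has fewer samples.

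With 1 mouse left out, the ranges were 0 to 2 for HFD in fasted and 3 to 5 in fed p110αhep−/− mice, 0 to 3 for the diet by fasting interaction in p110αhep+/+ mice and 0 to 2 for the genotype by diet interaction in fed mice. The labels give the replicate numbers no meaning across groups, and by the rule used (every pair's correlation over 0.1) they were not taken to pair the mice: same-numbered mice of different groups had a mean correlation of 0.019 (from -0.34 to 0.32), and 16 of 48 arrays, not all, were closest to their own number, which is more than numbers without meaning would give on average. The replicate block changed no count by over 1.5 times except the 2 given above.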
